A study of Mus musculus with 12 samples.

Results

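The loci examined were Cd4, Cd8a, Cd8b1 and Zbtb7b, which encode the coreceptors of T cells and a transcription factor of the CD4 lineage, in thymic invariant natural killer T (iNKT) cells. Members were the accessible regions of 500 bp that overlapped these gene bodies, or the 20 kb on either side of them, in the GENCODE vM21 annotation of the mouse genome (GRCm38, mm10). Of 63309 regions, 27 were members, 15 of them in the Cd4 window and 12 in the Zbtb7b window, and the windows of Cd8a and Cd8b1 held 0. Accessibility was measured by Omni-ATAC-seq, in which the transposase Tn5 inserts sequencing adapters into open chromatin of permeabilized cells. The 12 libraries came from iNKT1, iNKT2 and iNKT17 cells of untreated mice aged 8 to 9 weeks, either wildtype C57BL/6 or Hivep3-/- on the C57BL/6 background, with 2 biological replicates in each of the 6 groups. Thymi were pooled, and the subsets were sorted, put together for transposition at 50000 to 100000 cells, and separated again by ICOS and CD138, because the CD122 and Izumo1r stains did not outlast the reaction. The stated subset gates used neither CD4 nor CD8. Values are log2 insertions per kb, scaled so that the linear sum of a library lay between 1915051 and 1919037, and the sequencing depth could therefore not be read from them. Each region is named by its gene and the distance of its centre from the annotated start of that gene, negative upstream.

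CD4 and CD8 are the coreceptors with which the T cell receptor reads MHC class II and class I molecules, and a thymocyte that carries both ends up with either or neither. Cd4 is controlled by enhancers upstream of its promoter and by a silencer inside the gene, while Zbtb7b encodes ThPOK, which keeps CD4-lineage cells from switching on the Cd8 genes and is itself transcribed from a distal and a proximal promoter. Mouse iNKT cells are selected by CD1d on double-positive thymocytes, lack CD8 and carry CD4 in a share that differs between subsets. HIVEP3, absent in the knockout mice, belongs to a small family of very large proteins, the Schnurri family, first found by their binding to DNA of the NF-κB type. No region described here was assigned to a named enhancer or silencer.

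Sequences of regions on which the results turn are shown on the minus strand of GRCm38, the strand from which both genes are transcribed, as the central 300 bases of a region or the 300 bases upstream of a start. Capitals mark the motif letters found by a search of both strands. Cd4 -12.3 kb, chr6:124900410-124900709, is shown because it changed most between C57BL/6 iNKT1 and iNKT2 cells. It lies in intergenic sequence between Cd4 and Lag3. Cd4 -7.7 kb, chr6:124895783-124896082 and also intergenic, had the widest range over the libraries, and Cd4 +2.9 kb, chr6:124885199-124885498, lies in an intron of Cd4 and had the smallest adjusted p between the genotypes. The promoters are shown for comparison, chr6:124888222-124888521 upstream of the Cd4 start and chr3:89393679-89393978 upstream of a start of Zbtb7b inside its most accessible promoter region, where 151 bases are exon of non-coding transcripts.
Cd4 -12.3 kb: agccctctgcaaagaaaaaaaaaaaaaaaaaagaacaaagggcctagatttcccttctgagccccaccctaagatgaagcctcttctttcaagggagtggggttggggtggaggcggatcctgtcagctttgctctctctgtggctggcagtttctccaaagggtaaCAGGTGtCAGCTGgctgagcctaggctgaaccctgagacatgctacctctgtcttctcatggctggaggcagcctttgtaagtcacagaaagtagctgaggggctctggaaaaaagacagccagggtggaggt
Cd4 -7.7 kb: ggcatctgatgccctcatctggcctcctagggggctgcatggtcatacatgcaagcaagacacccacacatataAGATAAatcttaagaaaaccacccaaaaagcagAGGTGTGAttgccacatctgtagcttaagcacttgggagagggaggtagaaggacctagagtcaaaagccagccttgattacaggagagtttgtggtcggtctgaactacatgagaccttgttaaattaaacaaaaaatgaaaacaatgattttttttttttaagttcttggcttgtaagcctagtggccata
Cd4 +2.9 kb: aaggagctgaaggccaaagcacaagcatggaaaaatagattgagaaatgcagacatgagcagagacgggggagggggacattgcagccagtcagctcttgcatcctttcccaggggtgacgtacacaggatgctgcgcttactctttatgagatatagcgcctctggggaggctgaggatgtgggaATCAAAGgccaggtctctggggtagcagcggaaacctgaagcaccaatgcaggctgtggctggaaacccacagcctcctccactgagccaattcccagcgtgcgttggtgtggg
Cd4 start: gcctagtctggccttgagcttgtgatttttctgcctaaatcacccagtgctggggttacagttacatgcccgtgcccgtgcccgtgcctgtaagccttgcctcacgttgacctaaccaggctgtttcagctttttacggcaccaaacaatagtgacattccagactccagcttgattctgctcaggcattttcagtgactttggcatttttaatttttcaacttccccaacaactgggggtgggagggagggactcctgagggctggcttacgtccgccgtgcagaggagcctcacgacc
Zbtb7b start: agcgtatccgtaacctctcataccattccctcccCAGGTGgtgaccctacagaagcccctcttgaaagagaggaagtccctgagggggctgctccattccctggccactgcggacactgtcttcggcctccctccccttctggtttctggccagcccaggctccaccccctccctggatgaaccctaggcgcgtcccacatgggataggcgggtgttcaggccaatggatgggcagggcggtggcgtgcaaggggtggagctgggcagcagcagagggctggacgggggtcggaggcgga

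Motifs of factors known in T cell development were searched in the central 300 bases of every region, and a match is a description of the letters, not a bound site. The GATA letters AGATAA were in 5 of the 27 members and in 12.9% of all regions, among them Cd4 -7.7 kb. The E boxes CAGGTG and CAGCTG were in 11 and 6 members, against 23.0% and 18.6% of all regions. In Cd4 -12.3 kb they stood 1 base apart. The T-box letters AGGTGTGA, in 2.08% of all regions, were found among the members in Cd4 -7.7 kb alone, and the TCF letters ATCAAAG, in 5.31%, were in 2 members, of which Cd4 +2.9 kb is shown. The Runt letters AACCACA were in 1 member, Cd4 -10.3 kb, against 13.7% of all regions, and the ETS letters CCGGAAG were in 1, Zbtb7b -17.2 kb, against 6.63%. The bZIP letters TGANTCA were in 3 members and 11.5% of regions. None of the letters occurred in the 300 bases upstream of the Cd4 start, although CAGGTG was in the region Cd4 +0.0 kb, which spans the start, and CAGGTG occurred in the bases shown for Zbtb7b.

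The subset labels were checked against promoter regions of marker genes, with the linear signal of the most accessible promoter region of each gene summed over a list. The iNKT1 list (Tbx21, Il2rb, Nkg7, Xcl1 and Ifng) summed to 634 and 627 in the C57BL/6 iNKT1 libraries and 638 and 622 in those of Hivep3-/-, and to at most 284 in the other groups. Of the iNKT17 markers, 4 are given singly in place of a sum. Ccr6 lay at 4.77 to 4.96 and Il23r at 4.86 to 5.18 log2 insertions per kb in the iNKT17 libraries of both genotypes, and below 0 in all other libraries. Sdc1, which encodes CD138, lay at 5.92 to 6.34 and under 4 elsewhere, and Il1r1 at 4.60 to 5.12 against 1.23 to 2.69. These markers thus set iNKT1 and iNKT17 cells apart in either genotype. The iNKT2 list (Zbtb16, Gata3, Il4, Icos, Izumo1r and Il17rb) was less distinct, at 445 and 408 in C57BL/6 iNKT2 against 363 and 340 in iNKT1 and 327 and 308 in iNKT17 cells. In the Hivep3-/- libraries it summed to 408 and 377 in iNKT2, 295 and 278 in iNKT1 and 318 and 289 in iNKT17 cells. Its genes did not move alike between iNKT2 and iNKT1 cells. In both genotypes Zbtb16, Il4 and Izumo1r were higher in iNKT2, while Gata3 and Icos overlapped. Il17rb was lower in iNKT2, at 4.864 and 4.989 against 5.096 and 5.115 in C57BL/6, and at 4.474 and 4.526 against 4.655 and 4.591 in Hivep3-/-.

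Lists for other cells that a thymic sort could hold were read in the same way. Of the double-positive thymocyte list, Arpp21 and Cd24a had a promoter region, 2 of 6 genes, while Rag1, Rag2, Dntt and Ptcra had none in the table. Their sums were highest in iNKT2 cells, at 27.8 and 34.3 in C57BL/6 and 19.4 and 22.8 in Hivep3-/-. In iNKT1 cells the sums were 4.70 and 8.57 in C57BL/6 and 12.1 and 14.5 in Hivep3-/-, and in iNKT17 cells 8.15 and 9.80 against 4.14 and 6.81. Among the B cell genes, Cd79a and Ms4a1 had no promoter region, and Pax5 and Ebf1 summed to between 14.3 and 36.2 with iNKT1 cells lowest in both genotypes. Among the myeloid genes, Lyz2, Csf1r and Itgam had none, and Spi1 and Cd68 summed to between 74.3 and 95.6. Since Pax5 (2.83 to 4.80) and Spi1 (4.08 to 5.35 log2 insertions per kb) had signal in every library, and the table may omit regions, whether such cells were present is left open. Hivep3 itself, a gene with 21 regions in its body, kept an accessible start region at 6.36 to 6.72 in all 12 libraries, which says nothing about the deletion because its position was not given.

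Cd4 (ENSMUSG00000023274.14, chr6:124864692-124888221, minus strand) had 15 regions, more than most genes, since 3.98% of protein-coding genes had as many in a window of this kind and the median was 3. At the start, Cd4 +0.0 kb (chr6:124887967-124888466) covers the 5′ UTR and the promoter. Its values were 3.37 and 3.22 in C57BL/6 iNKT1, 4.36 and 3.95 in iNKT2 and 1.46 and 2.13 in iNKT17 cells, and 1.51 and 1.25, 4.15 and 3.52, and 0.19 and 1.11 in the same subsets of Hivep3-/- mice. The means ran from C57BL/6 iNKT2 (4.15) through Hivep3-/- iNKT2 (3.83), C57BL/6 iNKT1 (3.30), C57BL/6 iNKT17 (1.80) and Hivep3-/- iNKT1 (1.38) to Hivep3-/- iNKT17 (0.65). The libraries of the leading pair overlapped, as did those of C57BL/6 iNKT17 and Hivep3-/- iNKT1, and the other neighbours in this order did not.

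Inside the gene, Cd4 +2.9 kb (chr6:124885099-124885598) was the most accessible of the intronic regions. Its values were 5.24 and 5.14 in C57BL/6 iNKT1, 6.12 and 6.07 in iNKT2 and 4.93 and 4.63 in iNKT17 cells, and 3.90 and 3.93, 5.81 and 5.82, and 3.99 and 4.10 in Hivep3-/- cells. No neighbouring groups overlapped, and the C57BL/6 libraries lay above the Hivep3-/- libraries in every subset. The intergenic pair upstream had another pattern. At Cd4 -12.9 kb the values were 4.72 and 5.01, 6.19 and 6.21, and 4.59 and 4.67 in the C57BL/6 iNKT1, iNKT2 and iNKT17 libraries, and 5.13 and 5.33, 5.31 and 5.42, and 3.82 and 4.46 in those of Hivep3-/-. Both C57BL/6 iNKT2 libraries stood above all others, whereas Hivep3-/- iNKT1 and iNKT2 libraries overlapped. At Cd4 -12.3 kb (chr6:124900310-124900809) they were 2.70 and 2.98, 5.14 and 5.00, and 2.46 and 2.85 in C57BL/6, and 3.23 and 3.45, 4.65 and 4.81, and 1.82 and 2.14 in Hivep3-/- cells, so that iNKT2 was highest in both genotypes.

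Cd4 -7.7 kb (chr6:124895683-124896182) had the widest range of all members, from -2.58 to 3.86. Its values were 1.91 and 2.22 in C57BL/6 iNKT1, 3.86 and 3.85 in iNKT2 and -0.10 and 0.44 in iNKT17 cells, and 2.39 and 2.91, 2.92 and 2.59, and -0.41 and -2.58 in Hivep3-/- cells. The last of these was the lowest value of its library, so that changes against Hivep3-/- iNKT17 cells depend on it. Downstream of the gene, Cd4 +25.1 kb (chr6:124862855-124863354), in an intron of Gpr162, was high in iNKT17 cells, with 3.54 and 3.99 in C57BL/6 and 3.44 and 3.88 in Hivep3-/- against 1.57 to 2.52 in the other groups. Cd4 +28.3 kb (chr6:124859654-124860153), in an exon of the same gene, lay between 3.35 and 4.15. Cd4 -15.5 kb (chr6:124903481-124903980), intergenic and the member of the window with the highest mean, varied little, from 4.96 to 5.61. The remaining members of the window, not listed by library, had ranges of 0.52 to 3.01 log2 units, the widest being Cd4 -19.8 kb, in an intron of Lag3, from 0.97 to 3.97. This region, Cd4 -10.3 kb and Cd4 +2.2 kb are named here and in the comparisons although they were chosen after their values were seen.

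**Figure D1:**
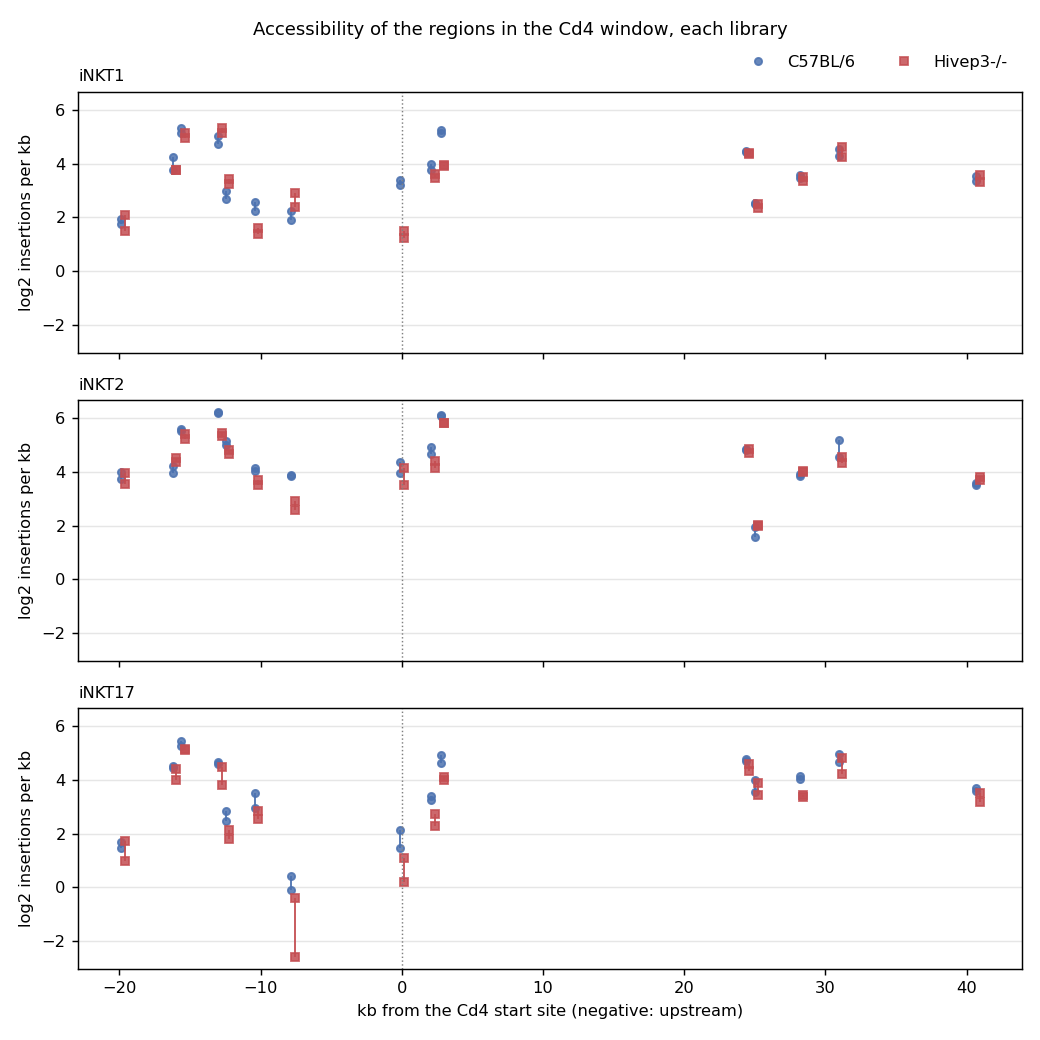
Accessibility of the 15 regions of the Cd4 window in log2 insertions per kb against the distance from the Cd4 start in kb, a panel for each subset and a point for each library, the genotypes set slightly apart sideways. In the iNKT1 panel the Hivep3-/- points at the start (1.51 and 1.25) lie below the C57BL/6 points (3.37 and 3.22).

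To see how the Cd4 locus differs between the subsets of wildtype mice, iNKT2 cells were compared with the others. Testing with limma was limited to regions whose linear mean reached 5 in a compared group, and a change was called when it was 3-fold or more with an adjusted p below 0.1. Between C57BL/6 iNKT1 and iNKT2 cells, 4 of 27 members tested were called, against 16.0% of all regions, and all 4 were lower in iNKT1 cells and in the Cd4 window. Cd4 -12.3 kb was the largest, 4.70-fold lower in iNKT1 (log2 -2.23, SE 0.21, adjusted p = 2.08e-06, n = 2 per group), followed by Cd4 -19.8 kb at 4.03-fold, Cd4 -7.7 kb at 3.46-fold and Cd4 -10.3 kb at 3.15-fold. These regions lie upstream of the gene, from the intergenic stretch into Lag3. The window leaned to iNKT2 beyond these, with a median change of -0.86 over its 15 regions against 0.01 over all regions tested. In such bulk libraries, fewer cells with an open region and less opening per cell cannot be told apart. The sums of the double-positive thymocyte list were also higher in iNKT2 (27.8 and 34.3) than in iNKT1 cells (4.70 and 8.57), with Rag1, Rag2, Dntt and Ptcra not listed, as were those of the B cell list (30.7 and 33.3 against 14.3 and 15.6) and the myeloid list (91.9 and 95.6 against 78.9 and 83.8), the last through Cd68 alone since Spi1 was lower in iNKT2 cells, and their part in the result was not tested. Without C57BL/6 iNKT1 replicate 2, Cd4 -10.3 kb fell short of 3-fold (-1.49), and with a pseudocount of 5 Cd4 -12.3 kb alone stayed called.

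Between C57BL/6 iNKT2 and iNKT17 cells, 5 of 27 members tested were called, against 16.2% of all regions, all of them in the Cd4 window. Cd4 -7.7 kb was 12.9-fold higher in iNKT2 (log2 3.69, SE 0.54, adjusted p = 8.11e-05, n = 2 per group), Cd4 -12.3 kb 5.34-fold, Cd4 +0.0 kb 5.12-fold and Cd4 -19.8 kb 4.81-fold. In the opposite direction, Cd4 +25.1 kb was 4.0-fold lower in iNKT2 than in iNKT17 cells (log2 -2.00, SE 0.25, adjusted p = 2.45e-05). This region lies close to the start of Gpr162, an orphan receptor gene. Leaving out C57BL/6 iNKT17 replicate 2 added Cd4 -12.9 kb (1.62) and leaving out C57BL/6 iNKT2 replicate 2 added Cd4 +2.2 kb (1.59), both under 3-fold with all libraries, and with a pseudocount of 5 the calls of Cd4 -7.7 kb and Cd4 -12.3 kb stayed. The double-positive thymocyte sums (27.8 and 34.3 against 8.15 and 9.80), the myeloid sums (91.9 and 95.6 against 79.7 and 81.7) and the B cell sums (30.7 and 33.3 against 26.9 and 29.7, where Pax5 overlapped and Ebf1 did not) were higher in iNKT2 than in iNKT17 cells as well, a difference whose part in these calls was not tested.

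Between C57BL/6 iNKT1 and iNKT17 cells, 1 of 25 members tested was called, against 20.5% of all regions, and it was a Zbtb7b region. In the Cd4 window the count by limma was 0 of 13, with 7 at an unadjusted p under 0.05, as 57.2% of all regions were. Cd4 -7.7 kb was left out by the filter there. It was 3.72-fold higher in iNKT1 (log2 1.8956, unadjusted p = 0.00376), its libraries did not overlap, and with no filter it was called (adjusted p = 0.00931), so the count of 0 depends on the filter. The smallest adjusted p was at Cd4 +25.1 kb, 2.39-fold lower in iNKT1 (log2 -1.26, SE 0.25, adjusted p = 0.000864, n = 2 per group). Cd4 +0.0 kb was 2.83-fold higher in iNKT1 (log2 1.50, SE 0.35, adjusted p = 0.00242) and passed 3-fold without C57BL/6 iNKT17 replicate 2 (1.84). In wildtype cells the mean accessibility of the Cd4 promoter thus ran from iNKT2 over iNKT1 to iNKT17, without overlap of libraries. Neither neighbouring step was called, as that from iNKT2 to iNKT1 was 1.81-fold (adjusted p = 0.0585 by limma). The B cell sums were lower in iNKT1 (14.3 and 15.6) than in iNKT17 cells (26.9 and 29.7) through Pax5 alone, since Ebf1 was higher. The myeloid sums overlapped, but their genes moved apart. Spi1 was higher in iNKT1 (5.069 and 5.333 against 4.118 and 4.238 log2 insertions per kb) and Cd68 lower (5.503 and 5.443 against 5.962 and 5.973). The part of these lists was not tested.

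In Hivep3-/- mice the same comparisons gave 4 of 27 members called between iNKT1 and iNKT2 cells, against 17.3% of all regions, again all lower in iNKT1 cells and in the Cd4 window. The promoter region Cd4 +0.0 kb now led, 5.47-fold lower in iNKT1 (log2 -2.45, SE 0.35, adjusted p = 5.64e-05, n = 2 per group). Cd4 -10.3 kb was 4.25-fold, Cd4 -19.8 kb 3.86-fold and Cd4 +2.9 kb 3.73-fold lower. Between iNKT1 and iNKT17 cells, 1 of 25 members tested was called, against 19.3% of all regions, namely Cd4 -7.7 kb, 17.7-fold higher in iNKT1 (log2 4.15, SE 0.54, adjusted p = 2.32e-05). Because Hivep3-/- iNKT17 replicate 2 was at its library's lowest value there, the change was 3.06 without it and 5.24 without replicate 1. With a pseudocount of 5 on the linear scale, Cd4 -7.7 kb lost its call (1.06), and of the calls between iNKT1 and iNKT2 cells that of Cd4 +2.9 kb alone stayed, Cd4 +0.0 kb being at -1.35. The double-positive thymocyte sums in Hivep3-/- iNKT1 cells (12.1 and 14.5) lay below those of iNKT2 (19.4 and 22.8) and above those of iNKT17 cells (4.14 and 6.81), and the B cell sums (19.7 and 18.4) lay below both (32.8 and 33.2, and 32.7 and 36.2). Against iNKT2 cells this came from Cd24a, with Arpp21 higher in iNKT1, and from Pax5, with Ebf1 overlapping. The myeloid sums were higher in iNKT1 (85.2 and 87.3) than in iNKT17 cells (74.3 and 75.0) through Spi1, with Cd68 lower. The part of these lists in the calls was not tested.

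Between Hivep3-/- iNKT2 and iNKT17 cells, 8 of 27 members tested were called, against 15.6% of all regions, 7 of them in the Cd4 window. Cd4 -7.7 kb was 19.0-fold higher in iNKT2 (log2 4.25, SE 0.54, adjusted p = 2.62e-05, n = 2 per group), Cd4 +0.0 kb 9.08-fold and Cd4 -12.3 kb 6.72-fold. The intronic pair followed, with Cd4 +2.9 kb at 3.41-fold and Cd4 +2.2 kb at 3.40-fold, and Cd4 -19.8 kb stood at 5.25-fold. Cd4 +25.1 kb was again lower in iNKT2, 3.16-fold (log2 -1.66, SE 0.25, adjusted p = 0.000124). Without Hivep3-/- iNKT17 replicate 2, the changes of Cd4 +25.1 kb (-1.44) and Cd4 +2.2 kb (1.54) no longer reached 3-fold and that of Cd4 -7.7 kb was 3.16, while it was 5.34 without replicate 1. With a pseudocount of 1 Cd4 +25.1 kb lost its call (-1.45), and with 5 Cd4 -12.3 kb alone stayed called. The double-positive thymocyte sums (19.4 and 22.8 against 4.14 and 6.81) and the myeloid sums (76.7 and 92.5 against 74.3 and 75.0, where Cd68 overlapped and Spi1 did not) were higher in iNKT2 cells here too, without a test of their part.

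The loss of HIVEP3 was followed next, within each subset. In iNKT1 cells the Cd4 promoter region fell in the knockout. Cd4 +0.0 kb was 3.77-fold lower in Hivep3-/- than in C57BL/6 iNKT1 cells (log2 -1.91, SE 0.35, adjusted p = 0.00559, n = 2 per genotype), and both Hivep3-/- libraries lay below both C57BL/6 libraries. It was the 1 member called of 26 tested, against 1.15% of all regions. The intronic region Cd4 +2.9 kb was 2.41-fold lower (log2 -1.27, SE 0.13, adjusted p = 9.76e-05), under the 3-fold threshold although its adjusted p was smaller. Cd4 -10.3 kb was 1.88-fold lower (log2 -0.91, SE 0.25, adjusted p = 0.0447), whereas Cd4 -12.9 kb and Cd4 -12.3 kb were higher in the knockout by 0.36 and 0.50 without passing the test (adjusted p = 0.328 and 0.216). The other intronic region, Cd4 +2.2 kb, changed by -0.34 (adjusted p = 0.428). The promoter and Cd4 +2.9 kb were thus lower, while neither region of the upstream pair was. The iNKT2 marker list was also lower in Hivep3-/- iNKT1 cells, at 295 and 278 against 363 and 340, with all 6 genes listed, of which Gata3 overlapped between the genotypes and the others did not. The double-positive thymocyte sums (12.1 and 14.5 against 4.70 and 8.57), the B cell sums (19.7 and 18.4 against 14.3 and 15.6) and the myeloid sums (85.2 and 87.3 against 78.9 and 83.8) were higher, although Ebf1, Spi1 and Cd68 each overlapped, and the part of these lists in the result was not tested. The call of Cd4 +0.0 kb was lost with a pseudocount of 1 or 5, by its size. With 1 the change (-1.585) missed the 3-fold threshold (log2 1.585) by less than the rounding (adjusted p = 0.00194 by limma). With 5 it was -0.96 (adjusted p = 0.00183 by limma).

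In iNKT2 cells, by limma 0 of 26 members tested were called between the genotypes, against 1.68% of all regions, with 5 at an unadjusted p under 0.05, a level that 25.3% of all regions reached. Cd4 -12.9 kb had the smallest adjusted p, at 1.78-fold lower in Hivep3-/- (log2 -0.84, SE 0.18, adjusted p = 0.0104, n = 2 per genotype), and its libraries did not overlap. At the promoter, Cd4 +0.0 kb differed by -0.32, less than the gap between the C57BL/6 libraries. The double-positive thymocyte list was likewise lower in Hivep3-/- iNKT2 cells (19.4 and 22.8 against 27.8 and 34.3). This came from Arpp21, at 2.087 and 2.615 against 4.078 and 3.984 log2 insertions per kb, since Cd24a, at 3.921 and 4.058 against 3.442 and 4.204, overlapped and the other 4 genes were not listed. The iNKT1 list (214 and 236 against 284 and 273) and, by a small margin, the iNKT2 list (407.65 and 376.5 against 445.13 and 408.29) were lower too, although Il2rb of the former and Zbtb16, Gata3, Il4 and Icos of the latter overlapped, and the part of these lists in the result was not tested.

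In iNKT17 cells 0 of 24 members tested were called by limma, against 0.271% of all regions, with 7 at an unadjusted p under 0.05, against 15.8% of all regions. Of these 7, 6 were Cd4 regions. Cd4 +2.9 kb was 1.67-fold lower in Hivep3-/- (log2 -0.74, SE 0.13, adjusted p = 0.012, n = 2 per genotype), Cd4 +28.3 kb 1.62-fold (adjusted p = 0.0404) and Cd4 +2.2 kb 1.77-fold (adjusted p = 0.0502). Cd4 +2.9 kb was therefore lower in the knockout in iNKT17 as in iNKT1 cells, though under 3-fold. Cd4 +0.0 kb and Cd4 -7.7 kb were left out by the filter, since their means were below 5 in both genotypes. They were 2.21-fold (log2 -1.1454, unadjusted p = 0.00594) and 3.18-fold lower in Hivep3-/- (log2 -1.6677, unadjusted p = 0.00852) without overlap of libraries, and with no filter the count of called members stayed at 0. Both sizes depend on 1 library. At Cd4 -7.7 kb the change is smaller without Hivep3-/- replicate 2, at its library's lowest value (-0.41 and -2.58 against -0.10 and 0.44 in C57BL/6). At Cd4 +0.0 kb it is smaller without Hivep3-/- replicate 1 (0.19 and 1.11 against 1.46 and 2.13). The Hivep3-/- iNKT17 libraries took 85 and 73 distinct values up to their median, fewer than any other library (91 to 491), and the part of this coarser scale in the result was not tested. Nor was that of the double-positive thymocyte sums (4.14 and 6.81 against 8.15 and 9.80) and myeloid sums (74.3 and 75.0 against 79.7 and 81.7), which were lower in the knockout, or of the B cell sums (32.7 and 36.2 against 26.9 and 29.7), which were higher. Of these genes Spi1 and Pax5 overlapped between the genotypes.

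**Figure D2:**
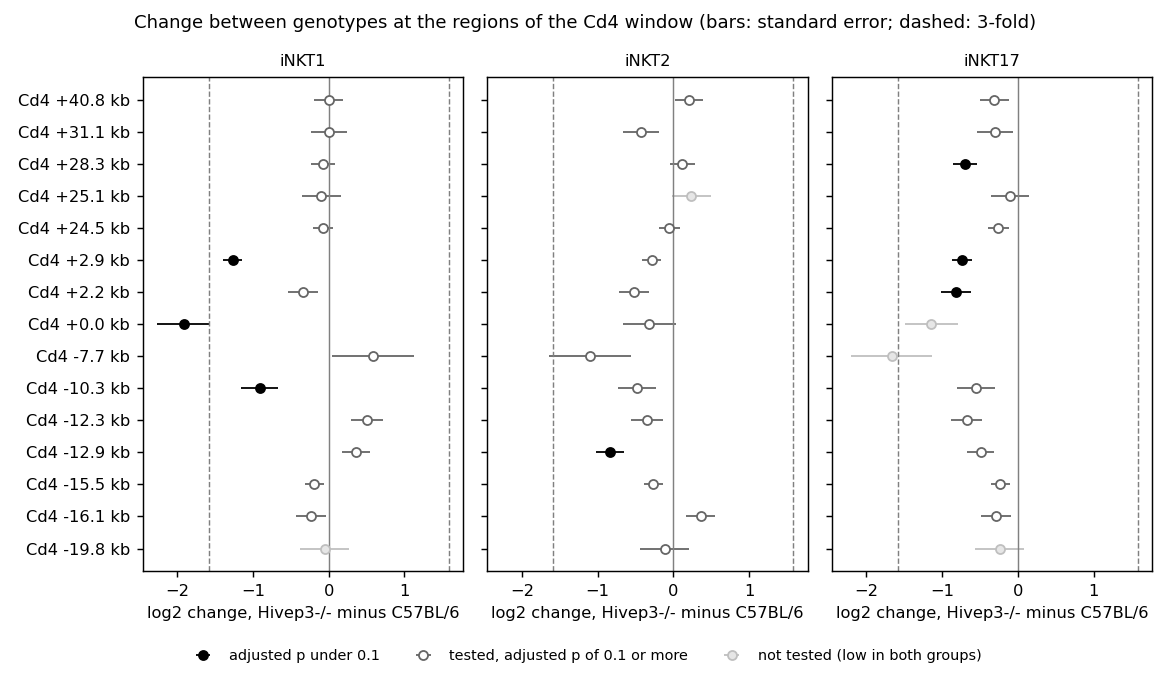
Log2 change between Hivep3-/- and C57BL/6 cells at each of the 15 regions of the Cd4 window, a panel for each subset, with bars for the standard error and dashed lines at 3-fold. Cd4 +0.0 kb in iNKT1 cells (-1.91) is the called point, and Cd4 -12.9 kb lies to the right of 0 in iNKT1 (0.36) and to the left in iNKT2 cells (-0.84).

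Whether the genotype change differed between subsets was tested as an interaction, the change in the former subset minus that in the latter. For iNKT1 against iNKT2 cells, 1 of 27 members tested was called, against 3.06% of all regions. This was Cd4 +0.0 kb, where the change in Hivep3-/- was -1.91 in iNKT1 and -0.32 in iNKT2 cells, a difference of -1.60 (SE 0.49, 3.02-fold, adjusted p = 0.0759, n = 2 per group). The call was fragile. It was lost with a pseudocount of 1 (-1.29) or 5 (-0.72) and after quantile normalization (-1.56). It was also lost without C57BL/6 iNKT1 replicate 1 (-1.52) or 2 (-1.67), C57BL/6 iNKT2 replicate 1 (-1.80) or 2 (-1.39), Hivep3-/- iNKT1 replicate 1 (-1.73) or 2 (-1.47), or Hivep3-/- iNKT2 replicate 1 (-1.28), and was kept without Hivep3-/- iNKT2 replicate 2 (-1.91). Smaller differences with lower adjusted p stood at Cd4 -12.9 kb, with changes of 0.36 in iNKT1 and -0.84 in iNKT2 cells (difference 1.20, SE 0.25, adjusted p = 0.0148), and at Cd4 +2.9 kb (difference -0.99, SE 0.18, adjusted p = 0.00704). The interactions at Cd4 +0.0 kb and Cd4 +2.9 kb therefore had the opposite sign to that at Cd4 -12.9 kb. Of the regions near them, Cd4 -7.7 kb (1.69, SE 0.76, adjusted p = 0.228), Cd4 -12.3 kb (0.85, SE 0.30, adjusted p = 0.115), Cd4 -10.3 kb (-0.43, SE 0.35, adjusted p = 0.545) and Cd4 +2.2 kb (0.18, SE 0.28, adjusted p = 0.788) did not pass. With limma on only the compared groups, Cd4 -7.7 kb was called (adjusted p = 0.0172). A pattern over the locus is therefore left open.

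For iNKT1 against iNKT17 cells, limma called 0 of 26 members tested, against 1.42% of all regions, with 5 at an unadjusted p under 0.05, against 14.2%. Cd4 -12.3 kb had the smallest adjusted p, with 0.50 in iNKT1 and -0.68 in iNKT17 cells (difference 1.18, SE 0.30, adjusted p = 0.0659, n = 2 per group). Cd4 -7.7 kb differed by 2.25 (SE 0.76, adjusted p = 0.178) and was called with the replicate number as a block (adjusted p = 0.0853). It was also called without Hivep3-/- iNKT17 replicate 1 (3.34). That fit kept Hivep3-/- iNKT17 replicate 2, which lay at its library's lowest value (-2.58) against -0.41 in replicate 1. The difference is smaller without replicate 2, so its size depends on that library. For iNKT2 against iNKT17 cells, limma called 0 of 27 members tested, against 1.02% of all regions, with 3 at an unadjusted p under 0.05, against 14.9%. Cd4 +28.3 kb led there, with 0.12 in iNKT2 and -0.70 in iNKT17 cells (difference 0.82, SE 0.23, adjusted p = 0.0976).

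Zbtb7b (ENSMUSG00000028042.15, chr3:89377644-89394776, minus strand) had 12 regions, a number that 7.81% of protein-coding genes reached. Its most accessible promoter region, Zbtb7b +1.0 kb (chr3:89393503-89394002), lies among 6 annotated starts of the gene and overlaps the antisense gene Gm15417. The values were 6.64 and 6.32 in C57BL/6 iNKT1, 6.40 and 6.28 in iNKT2 and 6.40 and 6.34 in iNKT17 cells, and 6.54 and 6.45, 6.44 and 6.38, and 6.23 and 6.41 in Hivep3-/- cells. All groups overlapped their neighbours in the order of means, which spanned only 6.32 to 6.49. This promoter region was therefore accessible at a like level in the 12 libraries, which does not hold for other start regions of the gene, as given below. Zbtb7b -17.2 kb (chr3:89411745-89412244), at the start of the neighbouring gene Flad1, an enzyme of flavin synthesis, was as steady at 6.59 to 6.92.

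Differences between subsets at 5 regions of the gene are described next. Zbtb7b +7.5 kb (chr3:89387025-89387524) covers a UTR at an internal start. Its values were 3.58 and 3.21 in C57BL/6 iNKT1, 4.60 and 4.39 in iNKT2 and 3.23 and 2.72 in iNKT17 cells, and 3.37 and 3.16, 4.80 and 4.70, and 3.07 and 2.40 in Hivep3-/- cells. iNKT2 libraries were the highest in both genotypes. Zbtb7b +12.5 kb, in an intron, was instead low in iNKT17 cells, with 2.32 and 2.51 in C57BL/6 and 2.77 and 1.93 in Hivep3-/- against 4.17 and 4.23 in C57BL/6 iNKT1, 3.94 and 3.74 in C57BL/6 iNKT2, 3.46 and 3.39 in Hivep3-/- iNKT1 and 4.04 and 3.63 in Hivep3-/- iNKT2 cells. Zbtb7b +8.5 kb (chr3:89386007-89386506) had a similar shape, at 2.57 to 2.87 in iNKT17 and 3.39 to 3.94 in the other cells. Zbtb7b +5.8 kb (chr3:89388751-89389250), intronic as well, was highest in iNKT2 cells, at 5.23 to 5.51 against 4.44 to 4.90 elsewhere. The start region Zbtb7b +0.2 kb (chr3:89394342-89394841) ran the other way, at 4.30 to 4.63 in iNKT2 and 4.67 to 5.11 in the other cells.

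**Figure D3:**
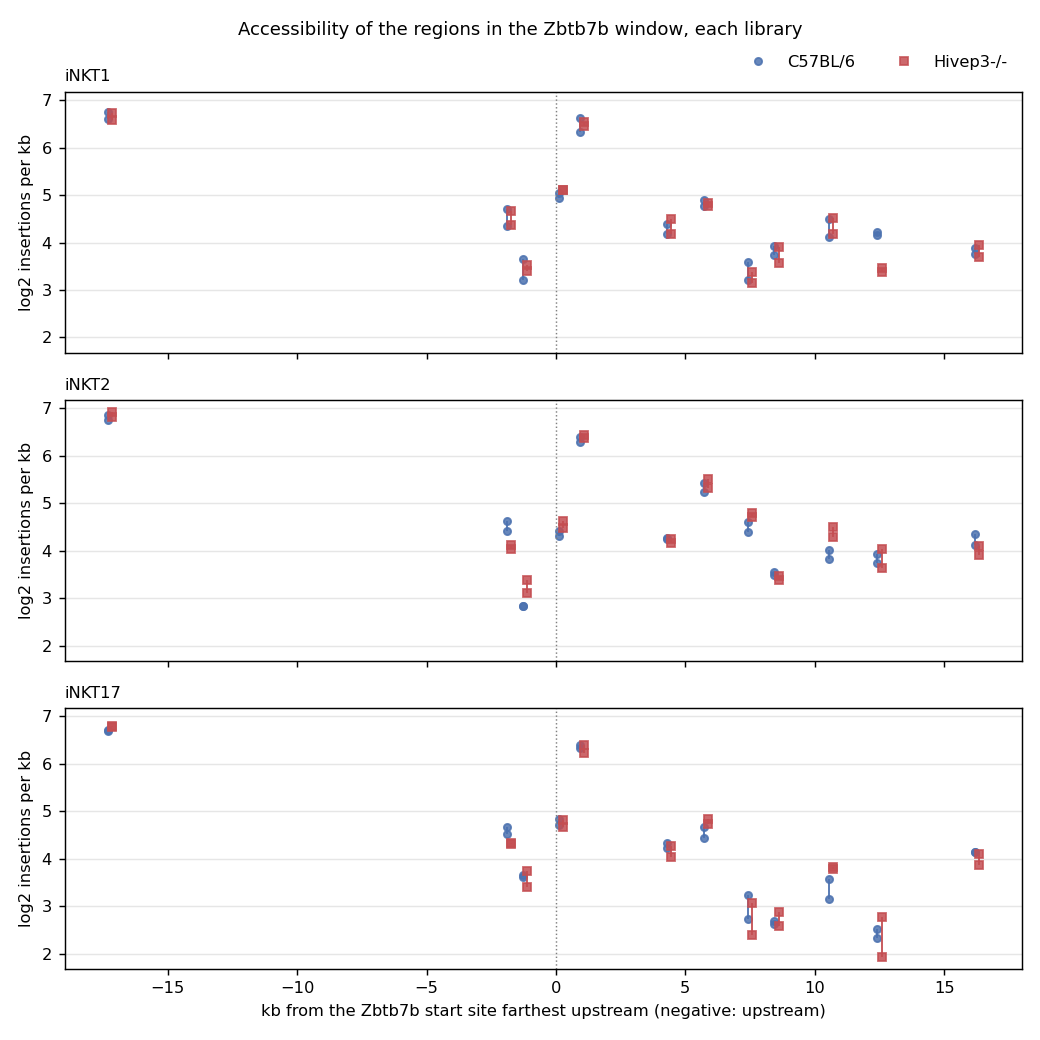
Accessibility of the 12 regions of the Zbtb7b window in log2 insertions per kb against the distance from the Zbtb7b start in kb, a panel for each subset and a point for each library by genotype. The promoter region Zbtb7b +1.0 kb lies between 6.23 and 6.64 in all libraries, and Zbtb7b +12.5 kb is lowest in the iNKT17 panel (1.93 to 2.77).

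The call between C57BL/6 iNKT1 and iNKT17 cells named above was Zbtb7b +12.5 kb, 3.43-fold higher in iNKT1 (log2 1.78, SE 0.26, adjusted p = 5.16e-05, n = 2 per group). It was lost with a pseudocount of 5 (1.17). In Hivep3-/- cells Zbtb7b +8.5 kb had the smallest adjusted p of this comparison, 2.03-fold higher in iNKT1 (log2 1.02, SE 0.20, adjusted p = 0.00068). Between iNKT2 and iNKT17 cells, Zbtb7b +7.5 kb was 4.05-fold higher in iNKT2 in Hivep3-/- mice (log2 2.02, SE 0.25, adjusted p = 2.02e-05) and called, and 2.85-fold in C57BL/6 (log2 1.51, SE 0.25, adjusted p = 0.00021). In C57BL/6 it passed 3-fold without iNKT2 replicate 2 (1.62) or iNKT17 replicate 1 (1.77), and in Hivep3-/- it was lost with a pseudocount of 5 (1.44). Zbtb7b +12.5 kb, at 2.81-fold in Hivep3-/-, passed it without iNKT2 replicate 2 (1.69) or iNKT17 replicate 1 (1.91) of that genotype.

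Between iNKT1 and iNKT2 cells limma called 0 of the 12 Zbtb7b regions in either genotype, against 16.0% and 17.3% of all regions, with 5 at an unadjusted p under 0.05 in each, against 54.4% and 57.7%. Zbtb7b +0.2 kb had the smallest adjusted p in C57BL/6, 1.55-fold higher in iNKT1 (log2 0.63, SE 0.13, adjusted p = 0.00111, n = 2 per group). In Hivep3-/- it was Zbtb7b +7.5 kb, 2.81-fold lower in iNKT1 (log2 -1.49, SE 0.25, adjusted p = 0.000208), which passed 3-fold without Hivep3-/- iNKT1 replicate 1 (-1.60). Upstream of the gene, Zbtb7b -1.2 kb, chosen after its values were seen, was lower in C57BL/6 iNKT2 than in iNKT1 (log2 0.61 for iNKT1 against iNKT2, adjusted p = 0.0275) and iNKT17 cells (log2 -0.81, adjusted p = 0.00611), without overlap of libraries, and did not pass the test in Hivep3-/- cells (adjusted p = 0.409 and 0.236). The gene body of Zbtb7b was thus more open in iNKT2 at its internal start, and less open in iNKT17 cells at the intronic regions Zbtb7b +8.5 kb and Zbtb7b +12.5 kb.

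Between the genotypes limma called 0 of the 12 Zbtb7b regions in each subset, against 1.15%, 1.68% and 0.271% of all regions, with 1, 2 and 1 at an unadjusted p under 0.05 for iNKT1, iNKT2 and iNKT17, against 17.8%, 25.3% and 15.8%. The smallest adjusted p were 0.102 for Zbtb7b +12.5 kb in iNKT1 (log2 -0.77, SE 0.26), 0.108 for Zbtb7b -1.8 kb in iNKT2 (log2 -0.44, SE 0.16) and 0.314 for Zbtb7b +10.6 kb in iNKT17 cells (log2 0.44, SE 0.20). For the interactions the count by limma was 0 of 12 as well, against 1.02% to 3.06% of all regions, with 0 at an unadjusted p under 0.05, against 14.2% to 20.8%. The smallest adjusted p were 0.247 and 0.413 at Zbtb7b +12.5 kb (-0.77, SE 0.36, and -0.71, SE 0.36) for iNKT1 against iNKT2 and against iNKT17 cells, and 0.488 at Zbtb7b -1.2 kb (0.49, SE 0.30) for iNKT2 against iNKT17. These p-values do not show that the genotypes were alike at Zbtb7b.

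Summed on the linear scale over its 15 regions, the Cd4 window gave 236 ± 4.28 (SD, n = 2) in C57BL/6 iNKT1, 420 ± 3.36 in iNKT2 and 248 ± 5.35 in iNKT17 cells. In Hivep3-/- mice the sums were 206 ± 4.79, 334 ± 4.30 and 188 ± 13.1. They were lower than in C57BL/6 by 12.7% for iNKT1, 20.3% for iNKT2 and 24.1% for iNKT17 cells, and the libraries of the genotypes did not overlap in any subset. The Zbtb7b window gave 383 ± 1.28, 385 ± 0.13 and 341 ± 3.32 in C57BL/6, and 377 ± 9.61, 402 ± 13.4 and 343 ± 4.85 in Hivep3-/- cells, changes of -1.7%, 4.6% and 0.5%. The sums were not tested and serve as a description of the loci as wholes.

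**Figure D4:**
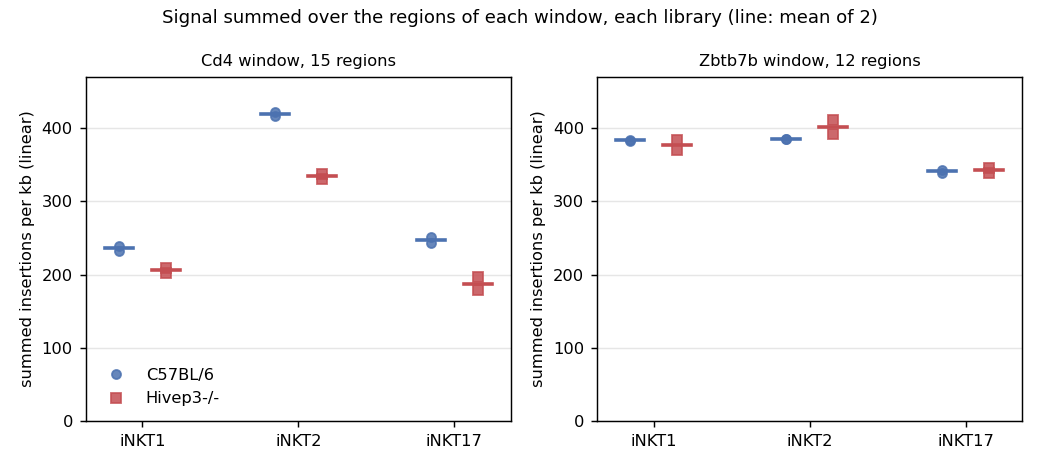
Summed linear insertions per kb over the regions of the Cd4 window and of the Zbtb7b window by subset, a point for each library by genotype and a line at the mean of 2. The Cd4 sums of Hivep3-/- libraries lie below those of C57BL/6 in each subset, for example 334 against 420 in iNKT2 cells.

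Cd8a (ENSMUSG00000053977.13, chr6:71373427-71379173, plus strand) and Cd8b1 (ENSMUSG00000053044.8, chr6:71322788-71337494, plus strand) encode the chains of CD8 and lie next to each other. The table as used lists no region in their windows, and this held in 5619 of 21755 protein-coding genes (25.8%). The nearest listed regions were chr6:71271223-71271722 at the start of Krcc1, 51066 bp from Cd8b1, and chr6:71440568-71441067 at the start of Rmnd5a, 61395 bp from Cd8a. The 168845 bp between them made 1 of the longer gaps, as 3.26% of gaps between neighbouring regions were as long or longer. Both flanking promoters were open in all 12 libraries, with values of 6.67 to 6.93 at Krcc1 and 8.00 to 8.20 at Rmnd5a. A missing region gives no level, so no statement can be made on how closed the Cd8 genes were or on a difference between subsets or genotypes there.

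The other genes of the pathway were Gata3, Tox, Myb, Runx1, Runx3, Cbfb, Tcf7, Lef1, Bcl11b, Satb1, Patz1, Zbtb7a, Tcf3, Tcf12, Ikzf1, Ets1, Il7r, Stat5a, Stat5b and Socs1, regulators of the CD4 and CD8 fates. Their windows held 372 regions, drawn in the same way. By limma 0 of their 20 most accessible promoter regions were called in any of the 12 comparisons, with 0 to 10 at an unadjusted p under 0.05, while of all regions 15.6% to 20.5% were called between subsets and 0.271% to 3.06% in the other comparisons, and 51.9% to 57.7% and 14.2% to 25.3% had an unadjusted p under 0.05. The widest change was at Patz1, a zinc finger gene, 1.01 higher in C57BL/6 iNKT1 than in iNKT17 cells (SE 0.13). Lef1, a partner of TCF1, was lower in iNKT1 than in iNKT2 cells, by a log2 change of -0.75 in C57BL/6 and -0.85 in Hivep3-/- (SE 0.08). These changes were smaller than the widest at the Cd4 promoter, 3.18 between Hivep3-/- iNKT2 and iNKT17 cells. That change rests on low values in Hivep3-/- iNKT17 cells (0.19 and 1.11, or 1.14 and 2.16 on the linear scale). With a pseudocount of 5 it was 1.545.

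The windows of the regulators as wholes, with all of their promoter regions, held calls. Between C57BL/6 iNKT1 and iNKT2 cells 28 regions were higher and 11 lower of 345 tested (11.3%, median change 0.13 against 0.01 over all regions). Between C57BL/6 iNKT1 and iNKT17 cells 34 were higher and 27 lower of 361, and between iNKT2 and iNKT17 cells 21 higher and 33 lower of 352. The Hivep3-/- counts were 32 and 23 of 349, 31 and 33 of 358, and 22 and 34 of 356. Shares in these comparisons lay at 11.3% to 17.9%, near or below those of all regions. The medians of the remaining comparisons were 0.14 and 0.05 in C57BL/6 and -0.06, 0.00 and 0.08 in Hivep3-/- cells, against 0.02 and 0.03, and -0.01, 0.02 and 0.04, over all regions.

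Between the genotypes the shares called lay near those of all regions. In iNKT1 cells 2 were higher and 1 lower of 342 (0.877% against 1.15%, median -0.07 against -0.02 over all regions), in iNKT2 cells 3 and 3 of 332 (1.81% against 1.68%, median 0.07 against 0.00), and in iNKT17 cells limma called 0 of 333, against 0.271%, with 70 at an unadjusted p under 0.05, against 15.8% (median 0.059 against -0.012). A region in the window of Stat5a, which encodes a mediator of cytokine signals, lies 29.7 kb downstream of its start (chr11:100888806-100889305). Which gene it acts on was not tested. The region changed in opposite directions, 1.66 higher in Hivep3-/- iNKT1 (SE 0.28, adjusted p = 0.0032, n = 2 per genotype) and with a change of -1.66 in iNKT2 cells (SE 0.28, adjusted p = 0.00247). In the interaction of iNKT1 against iNKT2 cells, 2 regions were higher and 13 lower of 354, or 0.565% and 3.67% against 2.06% and 1.00% of all regions, with a median of -0.15 against -0.01. Of the 13, 11 lay in the window of Satb1, the gene of a chromatin organizer that acts in the choice between CD4 and CD8 fates. Both genes were chosen after their values were seen. At chr17:51736840-51737339 the values were 2.99 and 2.74 in C57BL/6 iNKT1 and 3.31 and 2.30 in iNKT2 cells, and 1.93 and 1.57, and 4.55 and 4.45 in Hivep3-/- cells (difference -2.81, SE 0.42, adjusted p = 0.00259). In the interactions of iNKT1 and of iNKT2 against iNKT17 cells, 3 regions were higher and 0 lower of 366 (0.820% against 1.42% of all regions, median -0.165 against -0.014), and 3 and 2 of 360 (1.39% against 1.02%, median 0.057 against 0.028).

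The promoter regions whose pattern over the 12 libraries was most like that of Cd4 +0.0 kb, by Pearson's r among 21183 promoter regions, belonged to Dcun1d3 (0.957), Slain1 (0.95) and AU041133 (0.935). For Zbtb7b +1.0 kb they belonged to Kdm2b (0.918), Cflar (0.89) and Plk4 (0.88), although its SD over the libraries was only 0.11 against 1.40 at Cd4 +0.0 kb. The 12 points share 6 groups and a normalization, so that these values are a description without a test.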

How the data were processed

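Chromatin accessibility was measured by Omni-ATAC-seq in 12 libraries. Per the submitters' processing notes and the methods, the authors trimmed reads to 50 bp with Trimmomatic 0.39, mapped them to mm10 with the ENCODE ATAC-seq pipeline, merged peaks of all replicates into 500 bp regions with chromVAR, and counted transposase insertions per region. The deposited values are log2 insertions per kb, normalized by the authors with voom. Sums and upper quantiles are shared between libraries, as after quantile normalization, a step that the methods do not name, so depth per library is unknown and no counting error can be given, and a global shift in accessibility would not be visible. All 12 columns were mapped to groups by their names, and the table held 0 columns of other samples.

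Members, lists and named regions were chosen with earlier results of these data known. Named regions were, for each gene, the most accessible promoter region, for each locus the 3 with the highest means, and for each locus and comparison the largest called rise and fall or, with none called, the smallest adjusted p. Regions were tested over the whole table with limma 3.58.1 in R 4.3.3 (1 mean per group, empirical Bayes with trend, 6 residual and 7.17 prior degrees of freedom) where the linear mean was at least 5 in any group compared, with Benjamini-Hochberg adjustment and calls at adjusted p under 0.1 and at least 3-fold. The fit was checked on simulated data. Promoter regions lay within 1000 bp of a start. Sequences were read from GRCm38.p6, and motifs were searched with Python 3.11.15.

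The titles number single mice while the methods pool thymi, so whether subsets with a replicate number share a pool is not stated. Deviations of replicates from their group mean correlated at 0.12 to 0.167 between subsets of a genotype, at 0.113 to 0.171 between genotypes of a subset, and at 0.091 to 0.174 otherwise. With genotype and replicate number as a block (4 residual degrees of freedom), 0 of the 6 subset counts changed, and the counts were 4, 1 and 5 in C57BL/6 and 4, 1 and 8 in Hivep3-/- cells for iNKT1 against iNKT2, iNKT1 against iNKT17 and iNKT2 against iNKT17. Alternatives were a 2-fold threshold, a 10 kb window, no filter, pseudocounts of 1 and 5, quantile normalization again, only the compared groups, the replicate block, and each library left out, where the lone library of a group is assumed to vary like the others.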

Additional observations from a re-analysis of the deposited data

Results flagged for a closer look

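Each of these results is a genotype change that differed between a pair of subsets by the interaction test, with an adjusted p under 0.1. At Cd4 +2.9 kb, in the intron, the change in iNKT1 minus that in iNKT2 cells was -0.99. At Cd4 +0.0 kb, the promoter, the same difference was -1.6. At Cd4 -12.9 kb, upstream, it had the opposite sign, 1.2. At Cd4 -12.3 kb, the change in iNKT1 minus that in iNKT17 cells was 1.18. At Cd4 +28.3 kb, in an exon of Gpr162, the change in iNKT2 minus that in iNKT17 cells was 0.82. Of these, Cd4 +0.0 kb alone also differed by 3-fold.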

How the results depend on the processing

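Of 298 recomputed changes of single regions, 274 kept their direction and their side of the threshold, 21 kept the direction and lost the call, 3 gained it, and 0 turned. Some of these could not turn. With equal groups, dropping the filter, fitting only the compared groups or adding a block leaves each change at its size. There only the adjusted p, and with it the call, could move. Of 162 recomputed counts of called members, 129 stayed within 1.5 times the reported count. Reported counts of 0 that stayed at 0 are among the 129 and say nothing on how firm a call was. Such were all counts for the genotypes in iNKT2 and in iNKT17 cells and for the interaction of iNKT2 against iNKT17. Of the other 33, those with 2-fold in place of 3-fold had more regions by construction, as had the whole table. They were 4 in place of 1 for C57BL/6 iNKT1 against iNKT17, 10 in place of 5 for iNKT2 against iNKT17, 8 in place of 1 for Hivep3-/- iNKT1 against iNKT17, 2 in place of 1 for the genotypes in iNKT1 and for the interaction of iNKT1 against iNKT2, and 1 in place of 0 for that of iNKT1 against iNKT17. With a 10 kb window, which holds fewer regions, the counts were 1 and 3 in C57BL/6 iNKT1 and iNKT17, each against iNKT2, and 2 in Hivep3-/- iNKT1 against iNKT2. With no filter, C57BL/6 iNKT1 against iNKT17 gave 2, as Cd4 -7.7 kb was added, with 20.5% of all regions called as before. A pseudocount shrinks changes of low values by construction. With 1 it left 2 for C57BL/6 iNKT1 against iNKT2 and 0 for the genotypes in iNKT1 and the interaction of iNKT1 against iNKT2. With 5 it left 1, 0 and 2 in C57BL/6 and 1, 0 and 1 in Hivep3-/- for iNKT1 against iNKT2, iNKT1 against iNKT17 and iNKT2 against iNKT17, and 0 for the genotypes in iNKT1 and the interaction. Shares over all regions moved likewise. For C57BL/6 iNKT1 against iNKT2, iNKT1 against iNKT17 and iNKT2 against iNKT17 they were 16.0%, 20.5% and 16.2% as reported, 27.3%, 31.7% and 26.1% at 2-fold, 13.0%, 17.7% and 13.6% with a pseudocount of 1 and 4.24%, 8.41% and 5.57% with 5. For Hivep3-/- they were 17.3%, 19.3% and 15.6%, then 29.5%, 30.0% and 25.9%, 14.3%, 16.6% and 12.8%, and 5.45%, 7.69% and 4.99%. For the genotypes in iNKT1 they were 1.15%, 3.56%, 0.717% and 0.0480%, for the interaction of iNKT1 against iNKT2 3.06%, 6.68%, 2.03% and 0.307%, and for that of iNKT1 against iNKT17 1.42%, 2.74%, 0.885% and 0.0595%. For the interaction of iNKT1 against iNKT2, quantile normalization again gave 0 (2.77% of all regions) and the compared groups alone gave 2 (3.61%, Cd4 -7.7 kb added, 1.69), and the replicate block gave 1 in place of 0 for the interaction of iNKT1 against iNKT17 (1.88%). The cause was not tested. Leaving out single libraries gave 1 to 2 for C57BL/6 iNKT1 against iNKT17 (2 without C57BL/6 iNKT17 replicate 2), 0 to 1 for the interaction of iNKT1 against iNKT2, and 0 to 1 for that of iNKT1 against iNKT17 (1 without Hivep3-/- iNKT17 replicate 1). The depth of the libraries is unknown, and with 2 libraries a group a missed threshold does not show that values were alike.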
